A study of Mus musculus with 4 samples.

Results

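The genes described here are 10 amino acid transporter genes of the mouse blastocyst: Slc6a14, Slc38a2, Slc7a5, Slc3a2, Slc7a3, Slc7a1, Slc7a8, Slc6a9, Slc1a5 and Slc7a11. They were chosen by name, as transporters that are not imprinted, with earlier results of the comparison of parthenogenetic and fertilized embryos known. Those results included the differences of Slc6a14 and Slc7a5. Values of that comparison are therefore given as a description, and calls of members are only counted, beside the share among all probe sets. SEs are the moderated ones of limma, which pool a probe set's own spread between arrays with that of probe sets of like brightness. For a gene whose arrays differ widely within an origin, such an SE can understate its own spread. They are 10 of 18193 genes named by a single symbol, and the array carried 18 probe sets annotated to one of them alone, out of 45037 that were not controls. Of the 18, 14 probe sets for 9 genes were bright enough to enter the fits, and both probe sets of Slc7a11 were not.

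RNA was measured in mouse blastocysts on day 4, at 96 hours, on 4 Affymetrix arrays. Diploid and tetraploid embryos were taken from each of 2 origins, parthenogenetic and fertilized, with 1 array for each of the 4 groups. A parthenogenetic embryo develops from an activated oocyte without sperm and has maternal chromosomes only, and the tetraploid embryos of both origins were made by fusion. The RNA on an array came from 30 embryos pooled, so no group has a replicate of its own, and the series treats tetraploid embryos as pseudoreplicates of diploid ones. The labels used here give no strain, age of the dams or activation agent.

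Amino acids enter cells through carriers that differ in what they carry and what drives them. Sodium-driven carriers such as Slc6a14 and Slc38a2 can fill a cell against a gradient, and exchangers such as Slc7a5 with Slc3a2 swap one amino acid for another. Leucine and arginine taken up by the blastocyst feed mTORC1, the kinase complex that couples nutrients to growth, and are known to be needed for the trophoblast to become motile at implantation. A shortage of amino acids activates the kinase GCN2 and the transcription factor ATF4, which raises the transcription of several carriers in this set. The question put to the members was whether they were higher in parthenogenetic embryos, where the imprinted transporter Slc38a4 is missing.

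Promoter windows are shown for 3 members: Slc6a14 and Slc38a2, which differed most in opposite directions, and Slc7a11, a textbook target of ATF4. Each runs from 250 bases before to 50 bases after a start site of RefSeq on GRCm38.p6, is written 5′ to 3′ on the strand of the gene, and has matches of the motifs named below in capitals. The windows lie at chrX:21714650-21714949 (plus strand), chr15:96699679-96699978 (minus strand) and chr3:50443564-50443863 (minus strand).
Slc6a14: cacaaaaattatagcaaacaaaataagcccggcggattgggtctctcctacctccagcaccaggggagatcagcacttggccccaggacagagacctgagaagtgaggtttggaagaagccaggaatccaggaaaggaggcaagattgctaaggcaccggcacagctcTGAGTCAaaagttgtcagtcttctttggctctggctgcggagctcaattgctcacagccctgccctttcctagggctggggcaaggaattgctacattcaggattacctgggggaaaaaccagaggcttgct
Slc38a2: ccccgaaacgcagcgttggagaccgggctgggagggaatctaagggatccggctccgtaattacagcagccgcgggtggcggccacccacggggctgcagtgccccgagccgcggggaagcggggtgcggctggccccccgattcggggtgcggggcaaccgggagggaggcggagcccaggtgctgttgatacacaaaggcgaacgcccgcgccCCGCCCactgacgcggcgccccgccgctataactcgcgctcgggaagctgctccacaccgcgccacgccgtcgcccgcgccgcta
Slc7a11: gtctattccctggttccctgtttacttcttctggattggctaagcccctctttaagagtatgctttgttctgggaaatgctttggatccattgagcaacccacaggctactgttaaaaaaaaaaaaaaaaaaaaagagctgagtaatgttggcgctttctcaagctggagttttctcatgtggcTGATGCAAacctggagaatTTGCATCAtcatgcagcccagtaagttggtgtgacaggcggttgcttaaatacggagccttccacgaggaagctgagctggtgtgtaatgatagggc

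Both strands were searched for 4 motifs: TGATGNAA, the core of the C/EBP-ATF response element that ATF4 binds, TGANTCA, the AP-1 site, GGGCGG, the GC box, and TATAAA, the TATA box. The ATF core occurred 2 times in the Slc7a11 window, at 66 and 47 bases before the start site and on opposite strands. It occurred in 3.97% of all 32851 windows, and in none of the windows of the other 6 members matched (Slc6a14, Slc38a2, Slc3a2, Slc7a1, Slc7a8 and Slc6a9). Slc7a5, Slc7a3 and Slc1a5 had no entry. The Slc6a14 window held 1 AP-1 match, 82 bases before the start (7.81% of all windows hold one), and no GC box or TATA box. The Slc38a2 window held 1 GC box, 35 bases before the start, a motif present in 35.7% of all windows. The Slc6a14 and Slc38a2 windows differed in base composition. Slc38a2 had 41 CpG dinucleotides, more than 96.5% of all windows, and Slc6a14 had 4, against a median of 7. These matches describe letters in the windows only.

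The data were signals of the MAS5 algorithm on a linear scale. A control floor was taken for each array as the 95th percentile of 27 probe sets for bacterial transcripts, at 113 and 150.3 on the diploid and tetraploid parthenogenetic arrays and 145 and 99.7 on the diploid and tetraploid fertilized arrays. Of the 18 probe sets, 13 were above it on all 4 arrays and 3 on none. Embryo markers fitted the label of blastocyst: all 11 trophectoderm and all 10 epiblast markers were above the floor on every array. Of the 10 primitive endoderm markers, all were above it on 3 arrays and 9 on the parthenogenetic tetraploid one. Markers of other possible RNA sources were dim, with 1 to 6 of 9 cumulus and granulosa genes, 1 to 4 of 10 fibroblast genes and 0 to 2 of 9 oocyte genes above the floor. Vim of the fibroblast list was above it on all 4 arrays and Gdf9 and Oosp1 of the oocyte list on 2 each, while Col1a1 and Lum, and Zp1, Zp2 and Mos, were at or below it on all 4. The cumulus genes were highest in sum on the parthenogenetic diploid array (1487, against 554 to 1072), where Has2, Ptgs2, Foxl2, Star, Tnfaip6 and Ptx3 were above the floor, at 117 to 323, and Fshr, Amh and Inhba were not on any array.

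The parthenogenetic tetraploid array stood apart from the other 3. The summed signal of the 10 epiblast markers was 14596 there, against 23753 to 24767 on the other 3, and that of the 10 primitive endoderm markers 21751, against 37532 to 47637. Most of these markers were lowest on that array, but Pou5f1, Klf2, Esrrb, Sox7 and Foxa2 were not. Foxa2 was highest on it, at 405 against 123 to 178. The 11 trophectoderm markers summed to 123426 there and to 103109 to 118305 on the others. In pooled embryos fewer cells of a type and less RNA per cell cannot be told apart. Actb and Gapdh controls, whose 3' signal over the signal in mid transcript grows as RNA is cut short, gave 9.28 and 5.22 on that array, against 5.13 to 7.55 and 3.72 to 4.08. Their ratios of 3' to 5' signal did not set the array apart: Actb had 127 there, against 108 to 137, and Gapdh 24.3, against 18.98 to 27.3. The part of cell makeup or RNA quality in the transporter values was not tested.

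**Figure D1:**
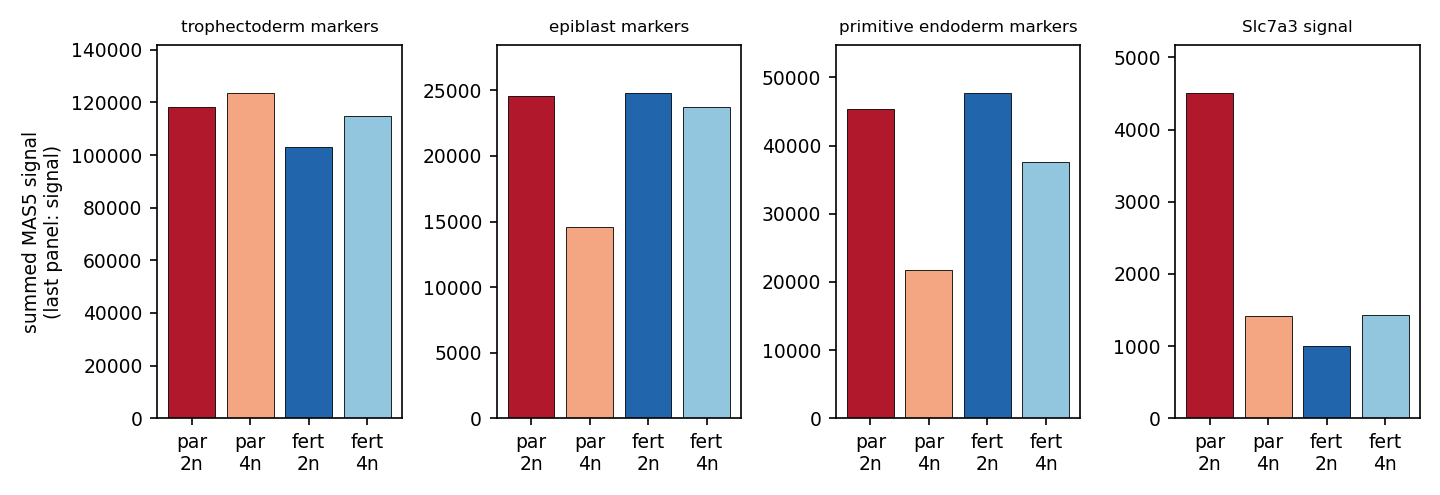
Summed MAS5 signal (linear axis from 0) of 11 trophectoderm, 10 epiblast and 10 primitive endoderm markers, each gene by its brightest probe set, and the signal of Slc7a3, on the parthenogenetic (par) and fertilized (fert) arrays, diploid (2n) and tetraploid (4n). Epiblast and primitive endoderm sums are lowest on the parthenogenetic tetraploid array (14596 and 21751), while Slc7a3 is high (4501) on the parthenogenetic diploid array alone.

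**Figure D2:**
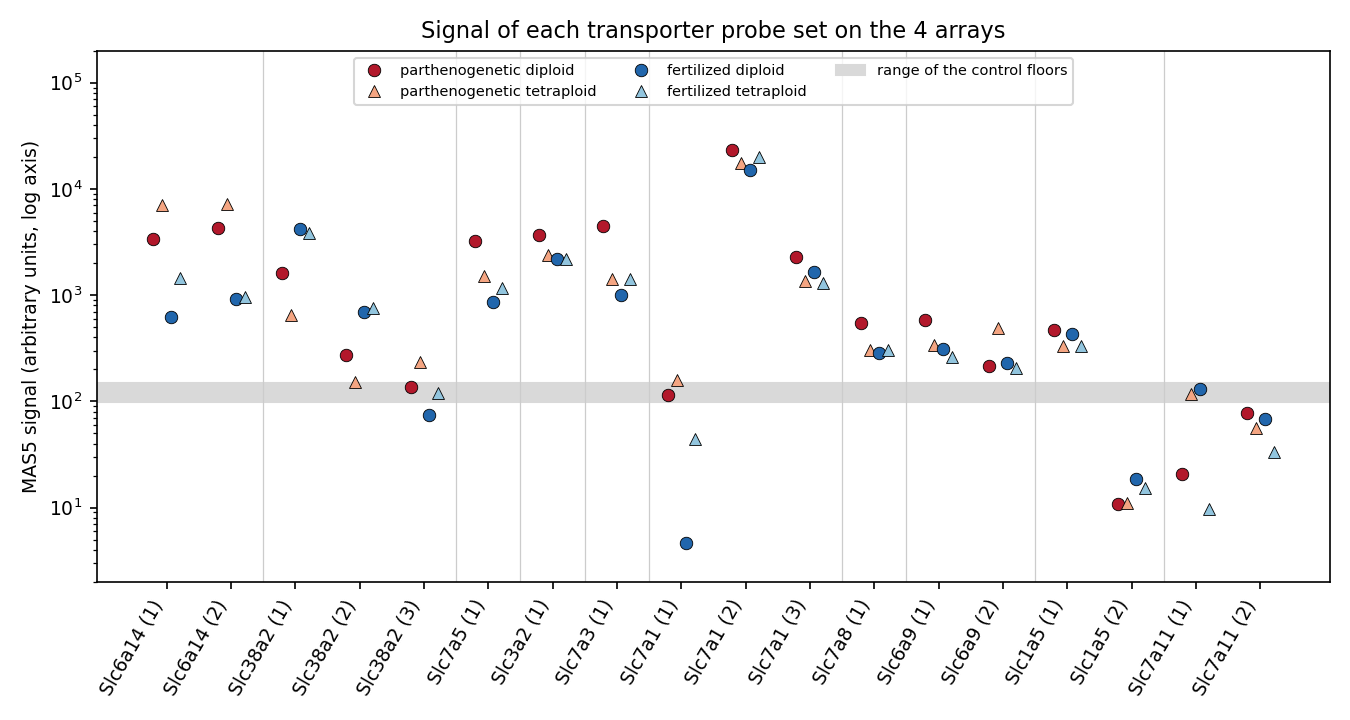
MAS5 signal (arbitrary units, log axis) of the 18 transporter probe sets, numbered within each gene, on the 4 arrays; each point is 1 array and the grey band spans the 4 control floors (99.7 to 150.3). Both probe sets of Slc6a14 are higher on both parthenogenetic arrays, the brightest of Slc38a2 is lower on both, and those of Slc7a11 lie in or below the band.

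Differences between origins were fitted on log2(signal + 10) over 23746 probe sets, with 2 arrays per origin. In that fit 16 probe sets (0.0674%) were higher in parthenogenetic embryos past the adjusted threshold of 0.05 and 25 (0.105%) were lower, or 7 higher and 31 lower when arrays were scaled to a common median. Among the 14 member probe sets 1 was called higher, for Slc6a14, and 0 were called lower. At least 2-fold in the same direction in both ploidies were 2 member probe sets that were higher, both of Slc6a14 (3.71% of all probe sets), and 2 that were lower, both of Slc38a2 (2% of all). Both parthenogenetic signals lay above both fertilized ones for 7 of the 14 (21.5% of all probe sets) and below them for 2 (19% of all). Since the members were chosen with this contrast known, nothing is read from these counts. The median difference of the 9 genes, each by its brightest probe set, was 0.45, beside 0.02 over all 11404 genes tested. Leaving out the parthenogenetic diploid array gave 0.12, leaving out the parthenogenetic tetraploid one 0.85. Common median scaling gave 0.13 and moved the median of all probe sets from 0.01 to -0.30.

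Slc6a14 was the member with the largest difference. It encodes the carrier of the system called B0,+, which uses sodium and chloride to bring in neutral and cationic amino acids, leucine and arginine among them, and is known for its activity in the mouse blastocyst. Its brighter probe set gave signals of 4277 in parthenogenetic diploid, 7229 in parthenogenetic tetraploid, 925 in fertilized diploid and 957 in fertilized tetraploid embryos. The origins did not overlap, and the fertilized pair was close together. The parthenogenetic to fertilized ratio was 4.62 for diploid and 7.55 for tetraploid arrays, and the fitted difference was 2.55 ± 0.32 (log2, SE, n = 2 arrays per origin), or 5.86-fold. Leaving out 1 array gave 2.17 to 2.93. The other probe set, made from the same sequence record, had 3358 and 7056 against 624 and 1452, a difference of 2.34 ± 0.43. In both probe sets the lowest parthenogenetic signal was above the highest fertilized one.

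Slc38a2 lay on the other side. It encodes SNAT2, a sodium-driven carrier of small neutral amino acids whose transcription rises when amino acids run short. The brightest of its 3 probe sets gave 1605 in parthenogenetic diploid, 649 in parthenogenetic tetraploid, 4237 in fertilized diploid and 3858 in fertilized tetraploid embryos. The fertilized signals were close to each other, and both were above the parthenogenetic ones, 2.64-fold for the diploid and 5.95-fold for the tetraploid arrays. The fitted difference was -1.97 ± 0.39 (3.93-fold lower), at -2.62 without the parthenogenetic diploid and -1.33 without the parthenogenetic tetraploid array. A dimmer probe set had 272 and 153 against 688 and 756 (-1.77 ± 0.41), the same direction, with the parthenogenetic tetraploid signal just above the floor of 150.3. The dimmest, from the same sequence record as that one, went the other way at 138 and 233 against 73.8 and 121 (0.86 ± 0.76), with the fertilized diploid signal below the floor.

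Slc38a2 is the middle one of a run of 3 transporter genes on chromosome 15. In the order of protein-coding genes in RefSeq, Slc38a1 precedes it and Slc38a4 follows. Slc38a4, paternally expressed and imprinted, had 4.29 and 83.1 in parthenogenetic embryos, both below the floor, against 3098 and 5781, and the brightest probe set of Slc38a1 had 105 and 24.0, also below the floor, against 2398 and 4278. By these probe sets, the brightest of each gene, they were at least 30.2-fold and at least 22.9-fold lower, with the floor in place of the dim signals. The probe sets of Slc38a1 disagreed: its other one was above the floor on all 4 arrays, at 314 and 340.4 against 1053 and 694 (-1.36 ± 0.37). The neighbours on either side were looked at after these values were seen. Scaf11, before Slc38a1, had 3578 and 2580 against 4722 and 4102 (-0.53 ± 0.28, limma adjusted p 0.60), and Arid2 had 6278 and 6373 against 4132 and 5414 (0.42 ± 0.26, adjusted p 0.65). Amigo2, after Slc38a4, was too dim to be tested, at 191 and 94.9 against 47.7 and 22.3. Pced1b, after Amigo2, had 303.7 and 136 against 157 and 129.9, the parthenogenetic tetraploid signal below the floor (0.49 ± 0.63, adjusted p 0.83). Gm41408, between Scaf11 and Slc38a1, had no probe set.

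**Figure D3:**
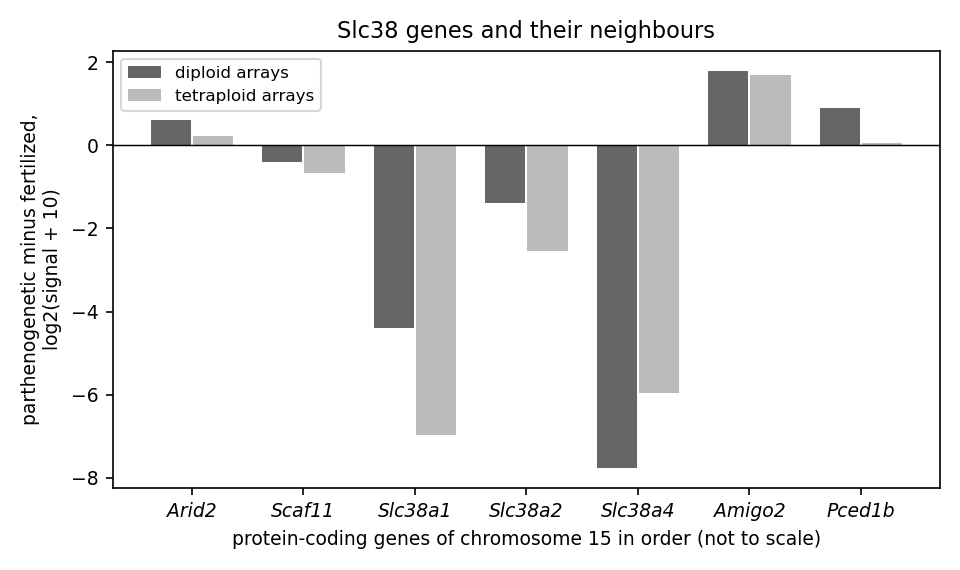
Difference between parthenogenetic and fertilized arrays, log2(signal + 10), by the brightest probe set of 7 protein-coding genes in their order on chromosome 15, between the diploid (dark bars) and the tetraploid arrays (light bars), 1 array a side. Slc38a1, Slc38a2 and Slc38a4 are below 0 in both ploidies, the nearest to 0 being Slc38a2 in the diploid pair (-1.40). Signals of the plotted probe sets of Slc38a1 and Slc38a4 were below the control floor in parthenogenetic embryos, so the lengths of their bars carry no exact fold. The same holds for Amigo2, above the floor on the parthenogenetic diploid array only. It also holds for the tetraploid bar of Pced1b, whose parthenogenetic tetraploid signal was below the floor.

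The exchanger of large neutral amino acids is a heterodimer of a light chain, Slc7a5 (LAT1), and the heavy chain Slc3a2 (CD98), which carries the light chain to the cell surface. Slc7a5 had 3233 in parthenogenetic diploid, 1524 in parthenogenetic tetraploid, 863 in fertilized diploid and 1157 in fertilized tetraploid embryos. Both parthenogenetic signals were above both fertilized ones, but the ratio was 3.75 for the diploid and 1.32 for the tetraploid arrays. The fitted difference was 1.14 ± 0.38, at 0.60 without the parthenogenetic diploid and 1.68 without the parthenogenetic tetraploid array. The heavy chain Slc3a2 had 3709 and 2387 against 2177 and 2209, with ratios of 1.70 and 1.08 (0.44 ± 0.30). Light and heavy chain thus shared the order of arrays at the top, with the parthenogenetic diploid highest and the parthenogenetic tetraploid next, and a wider span for the light chain. Slc7a8 (LAT2), another light chain of the same partner, had 542 in parthenogenetic diploid embryos and 307, 288 and 305 on the other 3 arrays (0.45 ± 0.43). Between the tetraploid arrays its difference was 0.01.

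Slc7a3 and Slc7a1, carriers of arginine and lysine, were also highest on the parthenogenetic diploid array by their tested probe sets, but their origins overlapped. Slc7a3 (CAT3) had 4501 in parthenogenetic diploid embryos and 1417 in parthenogenetic tetraploid ones, against 1002 and 1427 in diploid and tetraploid fertilized embryos. The origins overlapped: the ratio was 4.49 for the diploid and 0.99 for the tetraploid arrays, with a fitted difference of 1.07 ± 0.46. Without the parthenogenetic diploid array it was 0.24, and without the parthenogenetic tetraploid array 1.90. Slc7a1 (CAT1), the widespread carrier of cationic amino acids, had 23096 and 17598 against 14969 and 20098 by its brightest probe set and 2307 and 1346 against 1644 and 1310.2 by another. Its origins overlapped in both, with differences of 0.22 ± 0.25 and 0.26 ± 0.34. The first was -0.11 with common median scaling, and 0.02 without the parthenogenetic diploid and 0.41 without the parthenogenetic tetraploid array. Another probe set of Slc7a1, too dim to be tested, had 114 and 161 against 4.61 and 44.0, the latter pair below the floor, which gives at least 1.12-fold.

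Slc6a9 (GLYT1), which takes up glycine with sodium and chloride and serves to set cell volume in early embryos, had 578 and 339.8 against 309 and 264 by its brighter probe set (0.62 ± 0.42). Its dimmer probe set had 214 and 489.6 against 228 and 207 (0.56 ± 0.50), with the highest signal in the parthenogenetic tetraploid in place of the diploid array. The probe sets thus disagreed on which parthenogenetic array was high. Slc1a5 (ASCT2), an exchanger of glutamine and other neutral amino acids, had 471 and 335 against 427 and 332, differences of 0.14 for the diploid and 0.01 for the tetraploid arrays (0.07 ± 0.40). It was -0.24 with common median scaling and between -0.17 and 0.31 without 1 array. Its second probe set was at or below the floor on all 4 arrays, at 10.8 to 18.6. Slc7a11 (xCT), the light chain that imports cystine in exchange for glutamate, was likewise at or below the floor on every array, with 20.6 and 118 against 129.7 and 9.71 by one probe set and 33.4 to 78.4 by the other. No fold is given for it.

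Values differed between the ploidies. Between the diploid arrays 4 of the 14 member probe sets were at least 2-fold higher in parthenogenetic embryos (10.7% of all probe sets), namely both of Slc6a14 and those of Slc7a5 and Slc7a3. Between the tetraploid arrays 3 were (15% of all), both of Slc6a14 and the dimmer of Slc6a9. Over the 9 genes the median was 0.88 for the diploid and 0.01 for the tetraploid arrays, beside 0.01 and 0.05 over all genes tested. The parthenogenetic diploid array was the highest of the 4 for 8 of the 14 probe sets, against 24.2% of all. By their brightest probe sets it was the highest for 7 of the 9 genes, against 24.3% of all genes tested. The 7 were Slc7a5, Slc3a2, Slc7a3, Slc7a1, Slc7a8, Slc6a9 and Slc1a5. Each ploidy has 1 array a side, so the difference between them has no test. Without the parthenogenetic diploid array, Slc3a2 was at 0.12, Slc7a8 at 0.05 and Slc6a9 at 0.24, and without the parthenogenetic tetraploid array at 0.76, 0.85 and 0.99. The cumulus and granulosa list was highest in sum on the parthenogenetic diploid array. There 6 of 9 genes were above the floor with a sum of 1487, against 1 to 3 genes and 554 to 1072 on the others. Has2, Ptgs2, Foxl2, Ptx3 and Amh were highest there. Star was highest on the parthenogenetic tetraploid array (448 against 323 on the diploid one), and Tnfaip6 (223 against 132), Fshr and Inhba on the fertilized diploid array. The 4 tested genes of the list had a median difference of 0.95 for the diploid and -0.38 for the tetraploid arrays. The part of this list in the transporter values was not tested. Epiblast and primitive endoderm sums were near the fertilized ones on the parthenogenetic diploid array and low on the parthenogenetic tetraploid one. Pou5f1, Sox2, Fgf4, Klf2, Klf4, Esrrb and Prdm14 were highest on the parthenogenetic diploid array, and Nanog, Tdgf1 and Zfp42 on a fertilized one. Of the primitive endoderm list Sox7 and Lama1 were highest on the parthenogenetic diploid array, and most others on a fertilized one. Median differences for diploid and tetraploid arrays were 0.34 and -0.76 in the epiblast list and -0.06 and -0.58 in the primitive endoderm list. The part of these lists was not tested either. By their brightest probe sets Slc6a14 was highest and Slc38a2 lowest on the parthenogenetic tetraploid array.

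**Figure D4:**
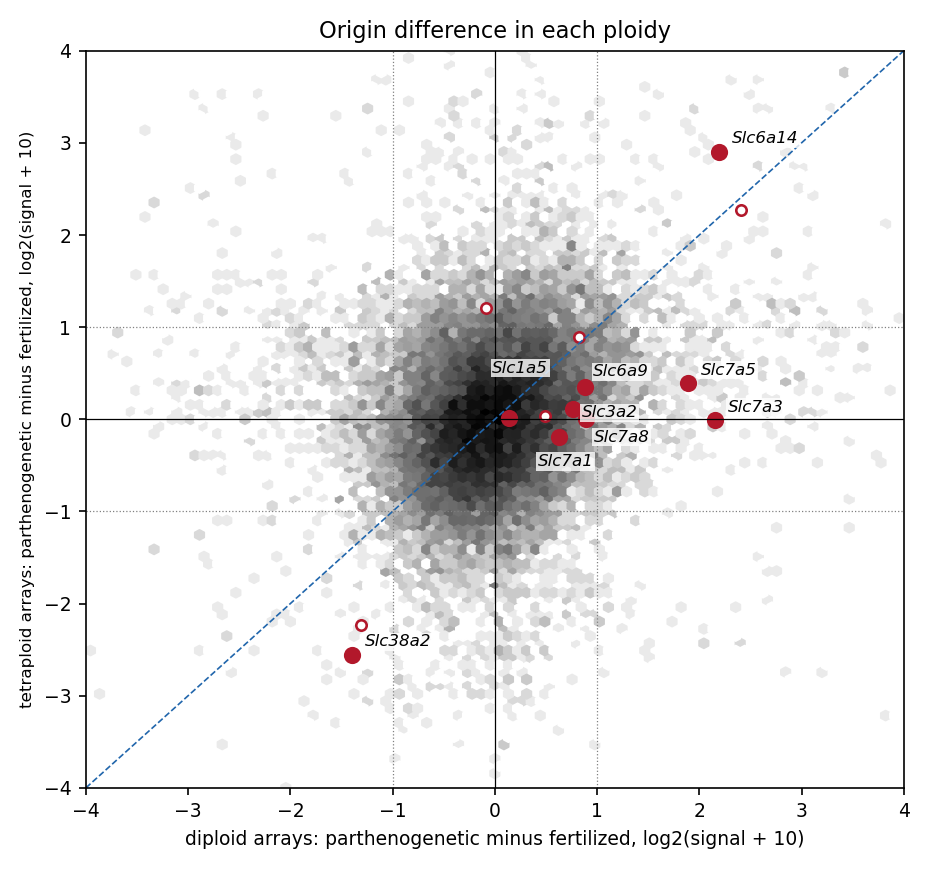
Difference between parthenogenetic and fertilized embryos on the log2(signal + 10) scale, for the diploid arrays (x) and the tetraploid arrays (y), with 1 array a side. Filled points are the brightest probe set of each of 9 members, open points their other tested probe sets, and grey cells count all tested probe sets inside the axes; dotted lines mark 2-fold and the dashed line equal differences. Slc7a3 (2.16 and -0.01) and Slc7a5 (1.89 and 0.39) lie to the right near 0 on y, while Slc6a14 (2.20 and 2.90) and Slc38a2 (-1.40 and -2.55) have the same sign in both ploidies.

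The comparison of tetraploid with diploid embryos, with origin as a covariate, was not used to choose the members and can be tested, with 1 residual degree of freedom. None of the 14 probe sets passed (limma, 0% of all 23746 probe sets passed). With a pseudocount of 1, no filter, common median scaling or quantile normalization, 11 to 73 probe sets passed in all. At an unadjusted p under 0.05 there were 1424 probe sets in all and 2 of the members. These were the dimmer probe set of Slc6a14 and the brightest of Slc38a2. That of Slc6a14 was higher in tetraploid embryos of both origins (1.14 ± 0.26, n = 2 arrays per ploidy, adjusted p 0.48, and 0.010 without the filter on dim probe sets). Its differences were 1.07 in parthenogenetic and 1.20 in fertilized embryos. That of Slc38a2 was lower (-0.71 ± 0.30, adjusted p 0.80), with -1.29 in parthenogenetic but only -0.14 in fertilized embryos. The other probe set of Slc6a14 differed by 0.40 ± 0.28 (adjusted p 0.87). Slc7a3 differed by -0.58 ± 0.39 (adjusted p 0.87) and Slc7a5 by -0.33 ± 0.34 (adjusted p 0.90). For both, the tetraploid array was lower in parthenogenetic embryos (-1.66 and -1.08) and higher in fertilized ones (0.51 and 0.42). The median over the 9 genes was -0.36, beside -0.05 over all genes tested.

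Slc6a14 and Slc7a3 are on the X chromosome, of which parthenogenetic embryos have maternal copies only. The other 389 X-linked genes tested had a median difference of 0.75, with quartiles at 0.42 and 1.14, and autosomal genes one of 0.00. Slc6a14 lay above most of them, with 12 of the 389 at least as high (25 for the diploid and 21 for the tetraploid arrays). Slc7a3 was matched or passed by 25 of the 389 between the diploid arrays and by 334 between the tetraploid ones, where its difference of -0.01 lay below the lower quartile of 0.36. These ranks are a description of the contrast by which the members were known.

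**Figure D5:**
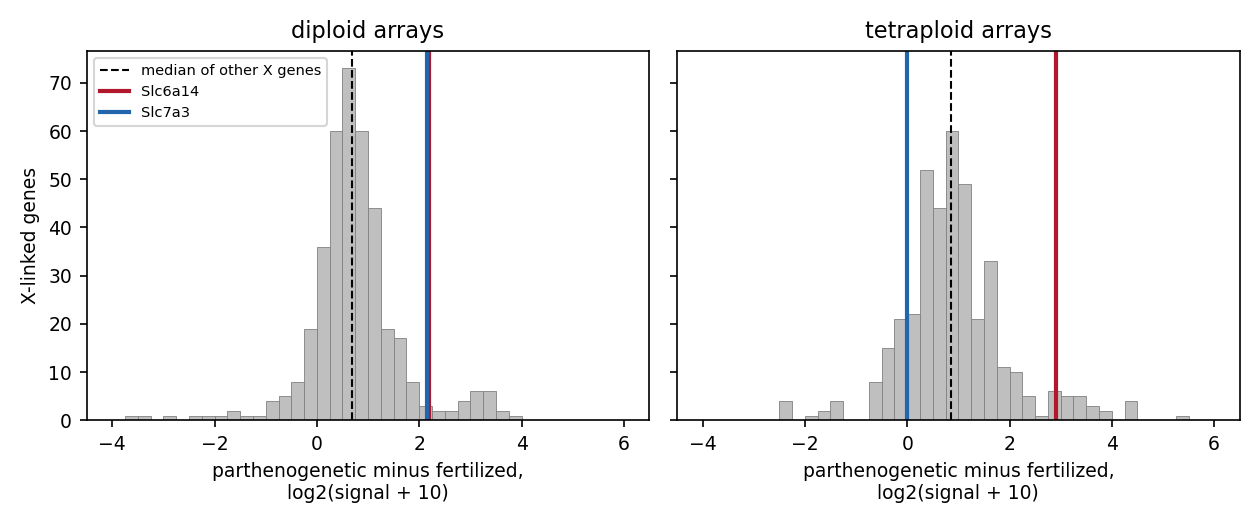
Number of other X-linked genes (389) by their difference between parthenogenetic and fertilized embryos, log2(signal + 10), between the diploid (left) and tetraploid arrays (right), with values beyond the axes drawn at their ends. Dashed lines mark the medians (0.68 and 0.85), the red line Slc6a14 (2.20 and 2.90) and the blue line Slc7a3 (2.16 and -0.01).

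Other amino acid transporters formed a second list of 39 genes, of which 37 were on the array and 19 were tested. Of these 12 had higher and 7 had lower values in parthenogenetic embryos, where 51.5% of all genes tested were higher. In the limma fits 0 passed in either direction or by ploidy. At an unadjusted p under 0.05 there were 2 by origin and 1 by ploidy, beside 2103 and 1424 of all 23746 probe sets. The median difference was 0.10, at 0.67 for the diploid and -0.05 for the tetraploid arrays. With common median scaling it was -0.21, beside -0.30 for all probe sets. Slc1a1, a glutamate carrier, had 2798 and 5548 against 1405 and 2084 (1.20 ± 0.36, limma adjusted p 0.37). Slc38a9, which reports lysosomal arginine to mTORC1, had 574 and 746 against 245 and 351 (1.13 ± 0.39, adjusted p 0.45). In both genes the origins did not overlap, and neither passed. Slc16a10, a carrier of aromatic amino acids, differed by 1.06 ± 0.55, the glutamine carrier Slc38a3 by 0.996 ± 0.57, the exporter of large neutral amino acids Slc43a2 by 0.81 ± 0.47 and Slc6a17 by 0.45 ± 0.53. Slc7a2, a further cationic carrier, and Slc38a6 were lower in value (-0.62 ± 0.59 and -0.58 ± 0.32).

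The machinery that senses amino acids was given by 42 genes of the GCN2 and ATF4 branch and of mTORC1, of which 40 were on the array and 39 tested. Values were higher for 20 and lower for 19, with a median of 0.02, where 51.5% of all genes tested were higher. In the limma fits 0 were past the threshold by origin or ploidy. At an unadjusted p under 0.05 there were 2 by each, beside 2103 by origin and 1424 by ploidy of all 23746 probe sets. Atf3, a transcription factor induced in stress, had 355 and 372 in parthenogenetic embryos against 9.72 and 44.2, both below the floor, at least 2.87-fold (fitted 3.51 ± 1.002, limma adjusted p 0.34). Atf5, induced with ATF4, had 518 and 547 against 194 and 228 (1.30 ± 0.40, adjusted p 0.38). Those 2 were the ones at least 2-fold higher in both ploidies. Chac1, an ATF4 target that degrades glutathione, followed Slc7a5 in being high on the parthenogenetic diploid array, at 999.9 against 409, 451 and 322 (0.73 ± 0.45, adjusted p 0.65). The mTORC1 subunits Rptor and Mlst8 differed by -0.80 ± 0.50 and -1.11 ± 0.55, with Mlst8 below the floor on both parthenogenetic arrays (at least 2.06-fold). Rptor and the folliculin partner Fnip1 (-0.79 ± 0.41) were low on the parthenogenetic tetraploid array alone, at 216 against 674 to 724 and at 529 against 1258 to 1585. Nprl3, a brake on mTORC1, differed by -1.01 ± 0.69 and the Rag GTPase Rragc by 0.51 ± 0.28.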

How the data were processed

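The authors deposited a linear intensity for every probe set on each array, made with MAS5 per the submitters' processing notes with no version given. The 2% trimmed mean was 500.0 on every array, so the deposited scaling was kept, and no batch is known. The number of arrays limits the precision. Names came from the platform annotation, updated by gene number through RefSeq (GRCm38.p6): 34958 probe sets had 1 symbol, 932 several and 9211 none, and 34754 of the first matched. Probe sets reaching the array median on at least 2 of 4 arrays were fitted as log2(signal + 10) with limma 3.58.1 in R 4.3.3 (lmFit, eBayes with an intensity trend, Benjamini-Hochberg over all probe sets kept), after a check on simulated data. With 10 added to every signal, fold changes of dim genes come out too small. The spread behind each p-value is that between these arrays alone, with the ploidies in place of replicates; an exact permutation test of 2 against 2 could not go below 0.33. A gene is given by its brightest probe set (mean of 4 arrays).

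The members and lists were chosen with earlier results of these data known. Genes named from the other lists are, per list, those past a threshold and the up to 8 with the largest origin difference among genes above the floor on both arrays of an origin. Folds of "at least" use the floor plus 10.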

Additional observations from a re-analysis of the deposited data

Results flagged for a closer look

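Several tested probe sets had differences of opposite sign in the groups compared. With 1 array a side, none of these contrasts was tested.

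The parthenogenetic minus fertilized difference changed sign between the diploid and the tetraploid arrays for Slc7a3 (2.16 and -0.01, 2.17 apart), the brightest probe set of Slc7a1 (0.63 and -0.19, 0.82 apart) and the dimmer one of Slc6a9 (-0.09 and 1.20, the diploid value minus the tetraploid value being -1.29).

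The tetraploid minus diploid difference was negative in parthenogenetic and positive in fertilized embryos for Slc7a3 (-1.66 and 0.51), Slc7a5 (-1.08 and 0.42), Slc7a8 (-0.80 and 0.08), a dimmer probe set of Slc38a2 (-0.79 and 0.13), Slc3a2 (-0.63 and 0.02) and the brightest probe set of Slc7a1 (-0.39 and 0.42). It was positive and then negative for the dimmer probe set of Slc6a9 (1.16 and -0.13).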

How the results depend on the processing

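Of 41 probe sets called by origin, the count became 0 without the intensity trend (1850 at an unadjusted p under 0.05), 142 with ploidy as a replicate block, and 46 to 715 without 1 array. The members' count of 1, a higher call, became 0 without the trend and 2 under a stricter filter (the 75th percentile, 50 of 11764 in all). It became 3 without a filter (56 of 45037 in all) and 3 with the block. The 2 under the stricter filter were higher, both of Slc6a14. Without a filter and with the block, 2 were higher, both of Slc6a14, and 1 was lower, of Slc38a2. Leaving out the parthenogenetic diploid array gave 4 (715 in all), the parthenogenetic tetraploid 5 (175 in all) and the fertilized tetraploid 2. With either parthenogenetic array left out, the members' calls went in both directions, and the lower ones were all of Slc38a2. The members' median lay between 0.12 and 0.85 without 1 array. The ploidy count of 0 became 19 with a pseudocount of 1, 73 without a filter, 11 with common median scaling and 55 with quantile normalization. Among the members it became 1 without a filter, the dimmer probe set of Slc6a14. The ploidy fit has no residual degrees of freedom without 1 array and was not run so. The cause of these changes was not tested. The highest bacterial signal as the floor left 12 of the 13 probe sets above it on all arrays. Of 115 alternative values of the members' origin differences, 106 counted as the same. Each of these kept its call, and a value that kept its sign counted whatever its size. Slc7a3 counted at 0.24 without the parthenogenetic diploid array, against 1.07 in the main fit. An uncalled value that changed sign also counted if it moved by less than the residual SD of its probe set. Slc1a5 was such a case, at -0.17 without the parthenogenetic diploid array against 0.07 in the main fit. Among the values that did not count as the same, Slc6a14 lost its call without the trend. Slc38a2 gained a lower call without a filter and with the block. Slc7a1 and Slc1a5 changed sign with common median scaling (-0.11 and -0.24).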
